A study of Mus musculus with 16 samples.

Results

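The transcription factors that shape placodal and neural crest sensory neurons were followed in sorted sensory neurons of 4 ganglia. They were taken by gene symbol: Phox2a, Prdm12, Pou4f1, Pou4f2, Isl1, Runx1, Runx3, Tlx3 and Prrxl1, 9 of the 22609 gene symbols counted. All 9 were present in the count files. Cells came from naive Pirt cre/-; Rosa26 LSL-tdTomato/+ mice on C57BL/6J, aged 8 to 12 weeks, in which Cre from the sensory neuron gene Pirt turns on the red fluorescent protein TdTomato; every group carried this reporter, so no group lacked it. Cells of the trigeminal ganglion (TG), the nodose and jugular ganglion complex (NG/JG), L3-L5 dorsal root ganglia (L3-L5 DRG) and T10-L1 dorsal root ganglia (T10-L1 DRG) were sorted by flow cytometry in 2 cycles with a gate on medium to strong TdTomato, so weakly labelled neurons were left out. Each ganglion had 4 SMART-seq2 libraries, a full-length method for small amounts of RNA, 16 in all. Whether a library held 1 mouse or several is not given in the sources used here, so p-values measure the spread between these libraries.

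Reads on genes ranged from 4735624 to 13333318 per library. A count of 3 reads, taken as the limit that a count of 0 allows, was worth 0.225 to 0.633 CPM (reads scaled to a library total of 1000000), and it covers counting error only. Pirt had 106 to 3164 reads in every library, and the summed level of 12 pan-neuronal markers ranged from 1418 to 15422 CPM. The summed level of 7 satellite glia markers, at 13158 to 64533 CPM, was higher than the pan-neuronal sum in 15 of the 16 libraries (not in L3-L5 DRG library 3). TG library 1 had the lowest pan-neuronal sum, and L3-L5 DRG library 4 had 66.6% of its uniquely aligned reads outside genes against 29.6% to 51.5% in the other 15. The labels give male mice, but all 16 libraries had Xist reads (1279 to 8362) and none had a read on 13 Y-linked genes.

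As background, nodose neurons arise from epibranchial placodes and relay signals from the viscera, whereas jugular, dorsal root and part of the trigeminal neurons arise from the neural crest and serve touch, pain, itch and temperature. Phox2a is a homeodomain factor of visceral and noradrenergic neurons. Pou4f1 (Brn3a) and Isl1 are homeodomain factors of nearly all somatosensory neurons, Prdm12 is a chromatin regulator needed for nociceptors, and Prrxl1 (DRG11) and Tlx3 are homeodomain factors of pain pathways. Runx1 and Runx3 carry the Runt domain and guide the subtypes of nociceptors and of proprioceptors. Runx1 is also a blood cell factor.

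The upstream sequences of Isl1, Prdm12 and Pou4f1 are shown because the reads of these 3 genes stood in a different proportion in NG/JG, as described further on. Each is the 250 bases before the RefSeq transcript start (promoter table of build GRCm38.p6), 5′ to 3′ on the strand of the gene, with matches to CCAAT or its reverse complement in capitals; the coordinates are those of the exact match in NCBIM37 (mm9), the build of the counts.
Isl1, chr13:117099897-117100146, minus strand: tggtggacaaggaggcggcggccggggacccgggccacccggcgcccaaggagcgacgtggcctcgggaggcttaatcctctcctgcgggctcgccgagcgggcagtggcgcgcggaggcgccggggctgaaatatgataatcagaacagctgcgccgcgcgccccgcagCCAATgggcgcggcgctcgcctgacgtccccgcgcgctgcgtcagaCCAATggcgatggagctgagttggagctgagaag
Prdm12, chr2:31495307-31495556, plus strand: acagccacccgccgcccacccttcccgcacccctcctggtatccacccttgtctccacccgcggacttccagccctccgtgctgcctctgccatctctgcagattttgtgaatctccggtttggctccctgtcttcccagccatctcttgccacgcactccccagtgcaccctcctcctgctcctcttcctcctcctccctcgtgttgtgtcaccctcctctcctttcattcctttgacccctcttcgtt
Pou4f1, chr14:104867217-104867466, minus strand: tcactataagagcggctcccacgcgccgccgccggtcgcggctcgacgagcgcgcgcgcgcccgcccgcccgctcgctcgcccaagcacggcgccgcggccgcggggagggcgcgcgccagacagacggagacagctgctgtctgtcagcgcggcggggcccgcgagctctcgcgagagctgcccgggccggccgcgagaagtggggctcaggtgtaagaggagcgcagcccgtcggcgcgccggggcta

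Isl1 held 2 CCAAT matches, and Prdm12 and Pou4f1 held none. Of the 11 promoters of the 9 genes (Runx1 and Runx3 have a distal and a proximal one each), 7 held CCAAT in these 250 bases, against 33.8% of 32544 promoters. None of the 11 held the homeodomain core TAATTA (4.84% of all promoters), the dimer TAATNNNATTA (0.461%) or TATAAA (12.3%), with both strands searched. The stretch was richest in G and C in the proximal Runx3 promoter (78.8%) and Pou4f1 (78.0%, with 47 CpG), and lower in Prdm12 (61.2%, with 10 CpG) and the distal Runx1 promoter (45.6%).

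The distal promoters are shown for the Runx genes because both hold sites for their own family. Those of Runx1 and Runx3 both held a pair of the RUNX core ACCACA spaced by 2 bases, shown here in capitals in 30-base windows.
Runx1, chr16:92826270-92826299, minus strand: cataaacaACCACAgaACCACAagttgggt
Runx3, chr4:134676418-134676447, plus strand: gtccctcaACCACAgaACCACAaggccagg

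The windows were identical at 19 of 30 positions. The pair began 134 bases before the transcript start of Runx3 and 28 bases after that of Runx1. The arrangement ACCACANNACCACA occurred on either strand in 7 of the 32544 promoters (0.0215%), among them one of Runx2. The single core ACCACA was in 16.7% of all 300-base promoters and in 3 of the 11, the third being Prrxl1.

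Per length of exon, Pou4f1 had the highest mean level over the 16 libraries (27.5 ± 25.6 RPKM, which is CPM per kilobase of exon; SD, n = 16), next to Isl1 (23.0 ± 23.4) and Prdm12 (18.9 ± 24.1), which did not differ from it beyond their spread. Runx1 (5.33 ± 5.41) and Prrxl1 (4.59 ± 7.06) followed, then Tlx3 (1.29 ± 1.04) and Runx3 (1.09 ± 1.83). Pou4f2 (0.359 ± 1.20) and Phox2a (0.325 ± 1.10) were above 3 reads in 4 and 2 libraries. The plot of CPM by ganglion shows how far the libraries of 1 ganglion lay apart.

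**Figure D1:**
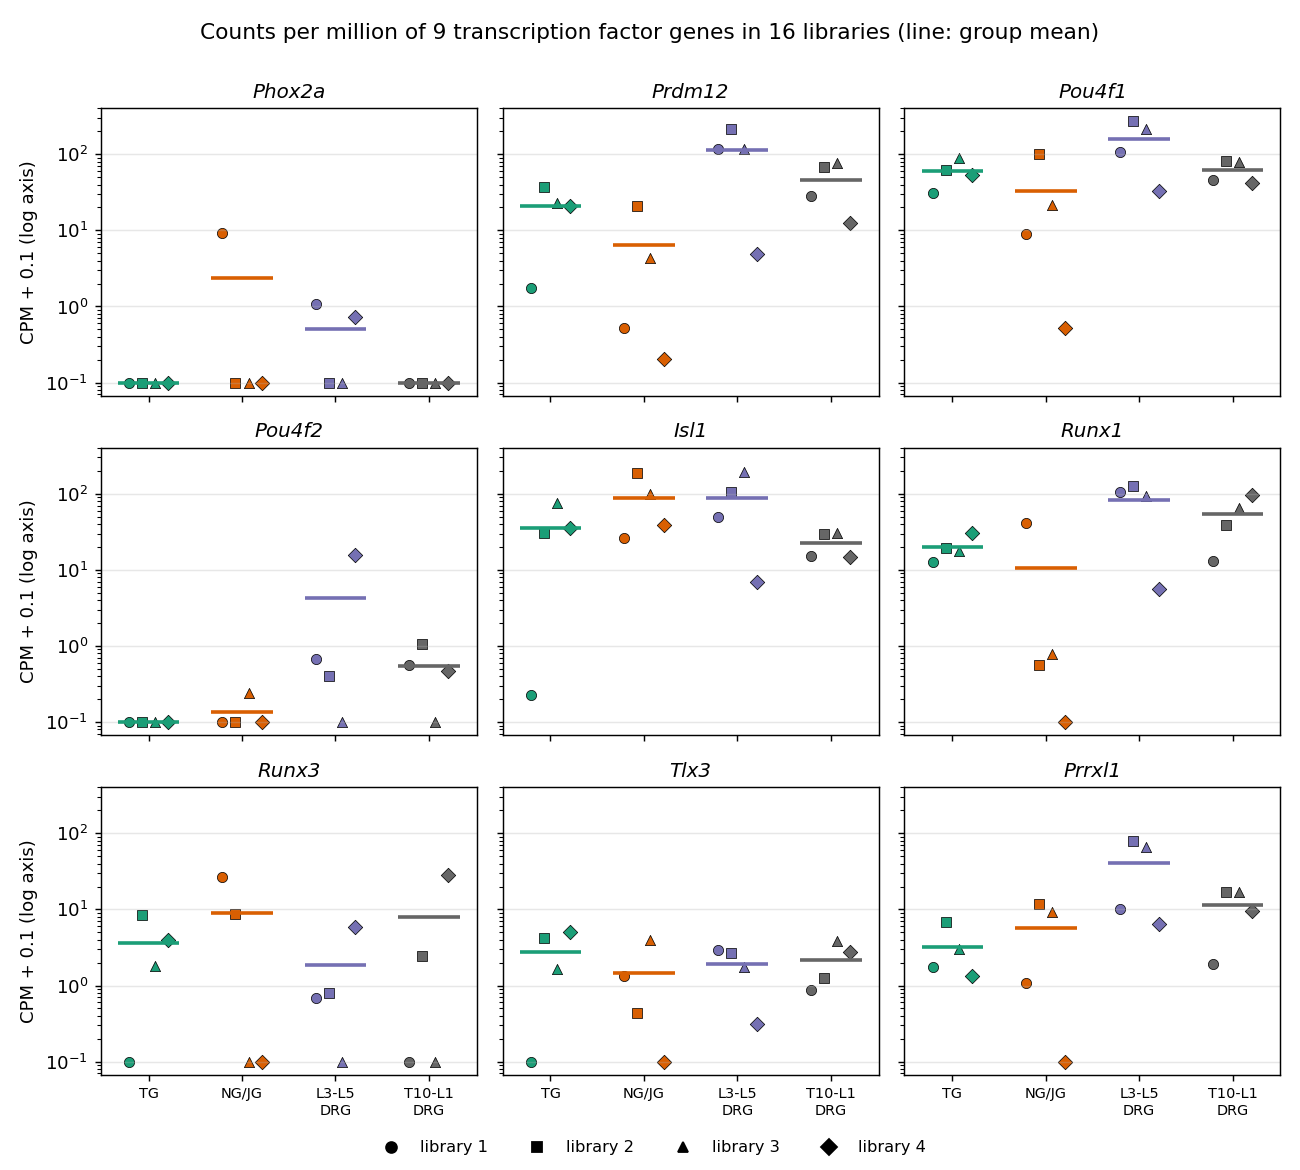
CPM plus 0.1 on a log axis for the 9 genes; each point is a library, the symbol gives its number and the line the mean of the 4 libraries of a ganglion. Points at the bottom of a panel are libraries without a read. Prdm12 and Runx1 reach their lowest levels in NG/JG (0.103 and 0 CPM), while Isl1 does not fall under 26.2 CPM there.

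None of the 9 genes passed the test (adjusted p under 0.05, edgeR quasi-likelihood test with Benjamini-Hochberg adjustment over all genes tested) in any of the 8 comparisons. Of the 54 tests of a member, 7 had an unadjusted p under 0.05 in edgeR, and DESeq2 called 2. The share of all genes called was 0.051% for NG/JG against TG, 0% for NG/JG against L3-L5 DRG, 0.0322% for NG/JG against T10-L1 DRG, 0% for TG against L3-L5 DRG and 0% for L3-L5 DRG against T10-L1 DRG. It was 5.87% for TG against T10-L1 DRG, 3.01% for any difference among the 4 ganglia and 0.829% for NG/JG against the mean of the other 3 ganglia. At an unadjusted p under 0.05 edgeR gave 739 of 12240 genes (6.04%) for NG/JG against L3-L5 DRG, 735 of 12430 (5.91%) for NG/JG against T10-L1 DRG, 2342 of 12900 (18.2%) for TG against L3-L5 DRG and 823 of 13550 (6.07%) for the pair of DRG. It gave 2489 of 14236 (17.5%) for any difference and 2433 of 14236 (17.1%) for NG/JG against the mean of the others. DESeq2 called 4.13%, 2.84%, 3.31%, 12.7%, 16.5% and 0.305% of genes in the 6 pairs of ganglia (in the order NG/JG against TG, L3-L5 DRG and T10-L1 DRG, TG against L3-L5 DRG and T10-L1 DRG, and the pair of DRG), 12.1% for any difference and 9.91% for NG/JG against the mean of the others. Its 2 calls of a member were Prrxl1 in TG against L3-L5 DRG and Prdm12 in NG/JG against the mean of the others. Without TG library 1, edgeR called 2038 genes for TG against L3-L5 DRG and 3583 for TG against T10-L1 DRG in place of 0 and 758.

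Phox2a and Pou4f2 did not pass the filter on low counts in any comparison, and Runx3 did not in NG/JG against L3-L5 DRG or L3-L5 DRG against T10-L1 DRG. The CPM ranges of the tested members overlapped between the groups in every comparison. Among all genes tested, ranges without overlap occurred for 9.63% in NG/JG against TG, 7.34% in NG/JG against L3-L5 DRG, 8.04% in NG/JG against T10-L1 DRG and 1.36% in NG/JG against the other 12 libraries. The shares were 15.9% in TG against L3-L5 DRG, 18.5% in TG against T10-L1 DRG and 3.7% in L3-L5 DRG against T10-L1 DRG. Over the 7 members tested, the median log2 fold change of NG/JG against the mean of the other ganglia was -1.14, against -0.07 over all 14236 genes.

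Prdm12 (chr2:31495557-31511315 of mm9, plus strand) had the largest fitted difference of NG/JG from the mean of the others among the members when all 16 libraries were used (without NG/JG library 1, Runx1 had a larger one). Its level was 0.417, 20.6, 4.28 and 0.103 CPM in NG/JG libraries 1 to 4. It was 1.65, 36.8, 22.7 and 21.1 CPM in TG, 116.6, 215.5, 117.9 and 4.86 CPM in L3-L5 DRG, and 28.0, 68.4, 76.7 and 12.45 CPM in T10-L1 DRG. NG/JG libraries 1 and 4 held 3 reads and 1 read and lay under every other library, but NG/JG libraries 2 and 3 lay within the range of TG, so the groups overlapped. The log2 fold change of NG/JG against the mean of the others was -3.03 (SE 1.19), with an adjusted p of 0.188 in edgeR and 0.0196 in DESeq2, which called 9.91% of genes there. Against single ganglia it was -2.01 (SE 1.71) for TG, -4.11 (SE 1.54) for L3-L5 DRG and -2.83 (SE 1.46) for T10-L1 DRG, with edgeR adjusted p-values of 0.817, 0.605 and 0.989. In fits without 1 of the 16 libraries, the difference from the mean of the others lay between -4.98 (without NG/JG library 2) and -2.62.

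Pou4f1 (chr14:104862737-104867216, minus strand) was above 3 reads in all 16 libraries. In NG/JG it stood at 8.76, 100.4, 21.7 and 0.413 CPM. It stood at 30.5, 62.6, 90.0 and 53.9 CPM in TG, at 107, 270.1, 216 and 32.7 CPM in L3-L5 DRG, and at 46.2, 82.05, 79.7 and 41.8 CPM in T10-L1 DRG. The 3 lowest libraries were all NG/JG, and NG/JG library 2 was above every TG and T10-L1 DRG library. NG/JG differed from the mean of the others by -1.46 on the log2 scale (SE 0.82, edgeR adjusted p = 0.398). Without NG/JG library 2 this was -3.09 (edgeR adjusted p = 0.101), and in the other 15 fits without 1 library it lay between -1.57 and -1.05. L3-L5 DRG differed from T10-L1 DRG by 1.32 (SE 0.58, unadjusted p = 0.0469, edgeR adjusted p = 0.785). The median of the 12 pan-neuronal markers in that comparison was 1.04, and Pou4f1 had a median of 18.4 reads per 1000 pan-neuronal reads in L3-L5 DRG beside 15.1 for T10-L1 DRG, with ranges that overlapped. Their part in the difference was not tested.

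Isl1 (chr13:117088478-117099896, minus strand) was not low in NG/JG. Its level there was 26.2, 185, 99.2 and 38.2 CPM. It was 0.127, 30.3, 75.6 and 35.3 CPM in TG, 49.2, 104.5, 191.5 and 6.76 CPM in L3-L5 DRG, and 15.1, 29.1, 30.003 and 14.5 CPM in T10-L1 DRG. Of the NG/JG libraries, 3 lay above all 4 of T10-L1 DRG, and the range of NG/JG lay within that of L3-L5 DRG. TG library 1 had 1 read of Isl1 and the lowest pan-neuronal sum of the 16 libraries. Per 1000 pan-neuronal reads, Isl1 stood at 0.0895 in that library against 8.38 to 15.8 in the other 3 of TG, whereas Pou4f1 was the highest of TG there, at 21.5. NG/JG differed from T10-L1 DRG by 2.02 (SE 0.72, unadjusted p = 0.0182, edgeR adjusted p = 0.513) and from the mean of the other ganglia by 1.00 (SE 0.81, edgeR adjusted p = 0.624). TG differed from T10-L1 DRG by 1.09 (SE 1.06, edgeR adjusted p = 0.608), and without TG library 1 by 1.51 (SE 0.43), where edgeR called it (adjusted p = 0.0285). The fit without TG library 1 called 3583 genes in place of 758.

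**Figure D2:**
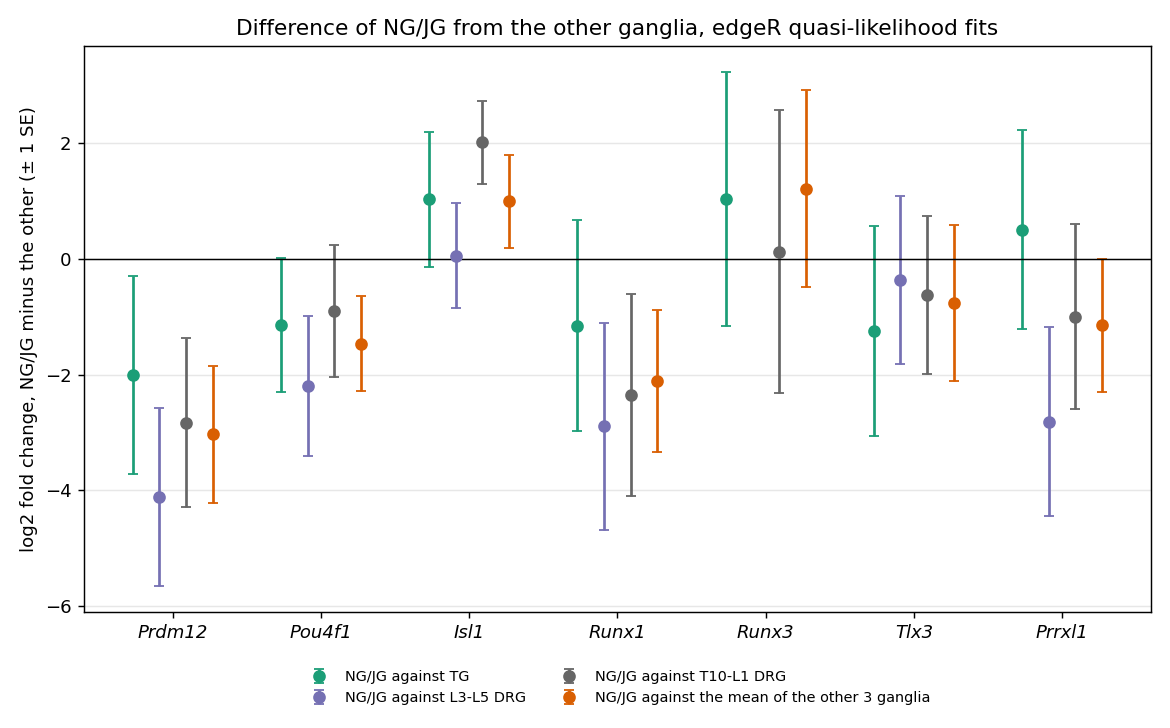
Log2 fold change of NG/JG against each other ganglion and against their mean for the 7 members tested, with bars of 1 SE from the edgeR fits; Runx3 was not tested against L3-L5 DRG. Prdm12, Pou4f1, Runx1 and Tlx3 lie under 0 in the 4 comparisons and Isl1 above 0, with bars of up to 2.45 (Runx3). Isl1 against L3-L5 DRG is close to 0, at 0.06 (SE 0.91). None of these differences was called by edgeR.

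Against the mean of the others, Isl1 had the opposite sign to Prdm12 and Pou4f1, with none of them called by edgeR. These genes can be compared within a library, where sequencing depth and scaling cancel. This was chosen after the values were seen and carries no test. The reads of Isl1 per read of Prdm12 were 62.7, 8.98, 23.2 and 370 in NG/JG. They were 0.0769 to 3.33 in TG and 0.391 to 1.16 in T10-L1 DRG, whereas the L3-L5 DRG libraries gave 0.422 to 1.62. The reads of Isl1 per read of Pou4f1 were 2.98, 1.84, 4.57 and 92.5 in NG/JG, and 0.00417 to 0.887 in the other 12 libraries. Thus Isl1 had more reads than Pou4f1 in each NG/JG library and fewer in each of the other 12. The values of 370 and 92.5 rest on 1 read of Prdm12 and 4 of Pou4f1.

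Of the 21 pairs of the 7 members, the read ratio separated NG/JG from the other 12 libraries in these 2 (9.52%). As a background, the ratio of Isl1 to each of the 14235 other genes tested was higher in the 4 NG/JG libraries than in the other 12 for 2.45% of genes and lower for 0%. The ratio of Pou4f1 was lower for 0.773% of genes, and that of Prdm12 for 0.766%. For Pou4f1 and Prdm12 only the lower direction was counted, whereas the 9.52% covers either direction, so these shares are not like for like. The ratio of Pou4f1 to Prdm12 overlapped, at 4.00 to 21.0 in NG/JG and 0.919 to 18.5 elsewhere. In bulk libraries, fewer cells of a type and less RNA per cell cannot be told apart.

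**Figure D3:**
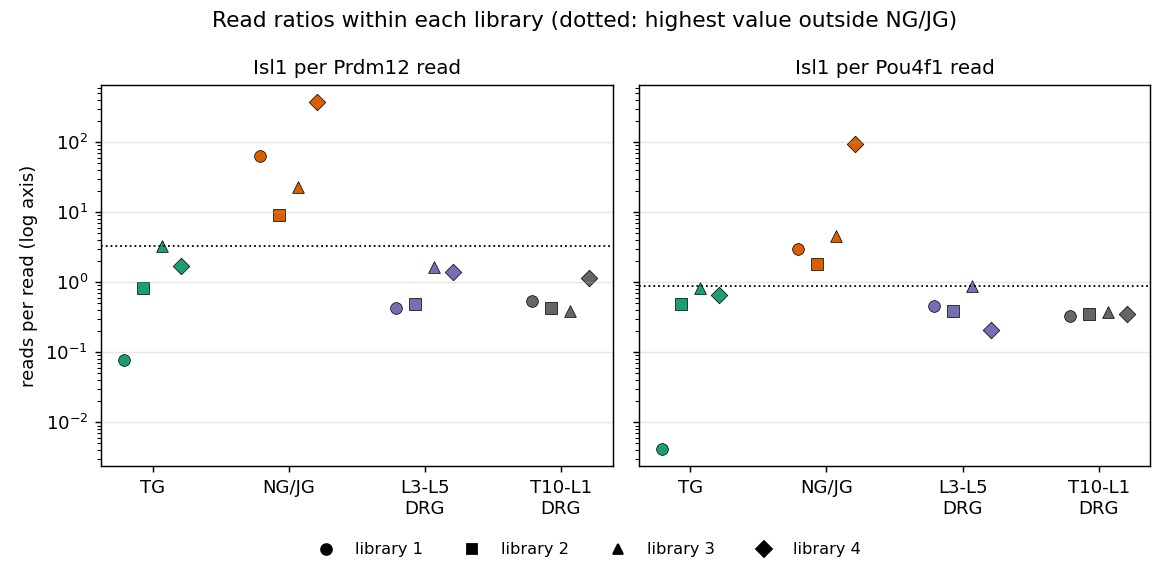
Reads of Isl1 per read of Prdm12 (left) and of Pou4f1 (right) in each library on a log axis, by ganglion. The dotted line is the highest value outside NG/JG (3.33 and 0.887), and the 4 NG/JG points lie above it in both panels.

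Runx1 (chr16:92601712-92826311, minus strand) had at most 5 reads in 3 of the 4 NG/JG libraries. It had 293, 4, 5 and 0 reads in NG/JG, or 40.8, 0.455, 0.691 and 0 CPM. It stood at 12.7, 19.3, 17.4 and 30.2 CPM in TG, at 105, 125, 93.1 and 5.49 CPM in L3-L5 DRG, and at 13.15, 38.3, 65.3 and 97.6 CPM in T10-L1 DRG. NG/JG libraries 2, 3 and 4 were under all 12 others, whereas NG/JG library 1 was above all 4 of TG. With NG/JG library 1, the difference from the mean of the others was -2.11 (SE 1.23, edgeR adjusted p = 0.425). Without that library it was -6.94 (SE 1.30), and edgeR called it (adjusted p = 0.0105), with 539 genes called in place of 118.

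Among the NG/JG libraries, the macrophage markers stood highest in the same one. Their summed level over 7 genes was 3120, 93.7, 18.8 and 190 CPM in NG/JG libraries 1 to 4. It ranged from 2170 to 7929 CPM in TG, from 681 to 13694 CPM in T10-L1 DRG; the L3-L5 DRG libraries held 66.2 to 5933 CPM. Ptprc, a marker of blood cells, had 590, 23, 2 and 952 reads in NG/JG, so NG/JG library 4 was high in Ptprc and without a Runx1 read. In L3-L5 DRG libraries 2 and 3, Runx1 stood at 125 and 93.1 CPM with macrophage sums of 66.2 and 105 CPM. Of the 7 macrophage markers, none was called for NG/JG against the mean of the others by edgeR or DESeq2, nor had any an unadjusted p under 0.05 in edgeR. Their median log2 fold change there was -1.97, beside -2.11 for Runx1. Their part in the NG/JG level of Runx1 was not tested.

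Runx3 (chr4:134676567-134733905, plus strand) was scattered over the ganglia. It had 0, 43, 10 and 22 reads in TG, 193, 76, 0 and 0 in NG/JG, 0, 25, 0 and 381 in T10-L1 DRG and 6, 7, 0 and 27 in L3-L5 DRG. In CPM the highest values were 28.6 in T10-L1 DRG library 4 and 26.9 in NG/JG library 1, and every ganglion had at least 1 library without a read. NG/JG differed from the mean of the others by 1.22 (SE 1.71, edgeR adjusted p = 0.824), and by -0.49 without NG/JG library 1. T10-L1 DRG library 4 also had the highest macrophage sum, at 13694 CPM, and 3569 Ptprc reads. Whether these reads came from other cells was not tested.

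**Figure D4:**
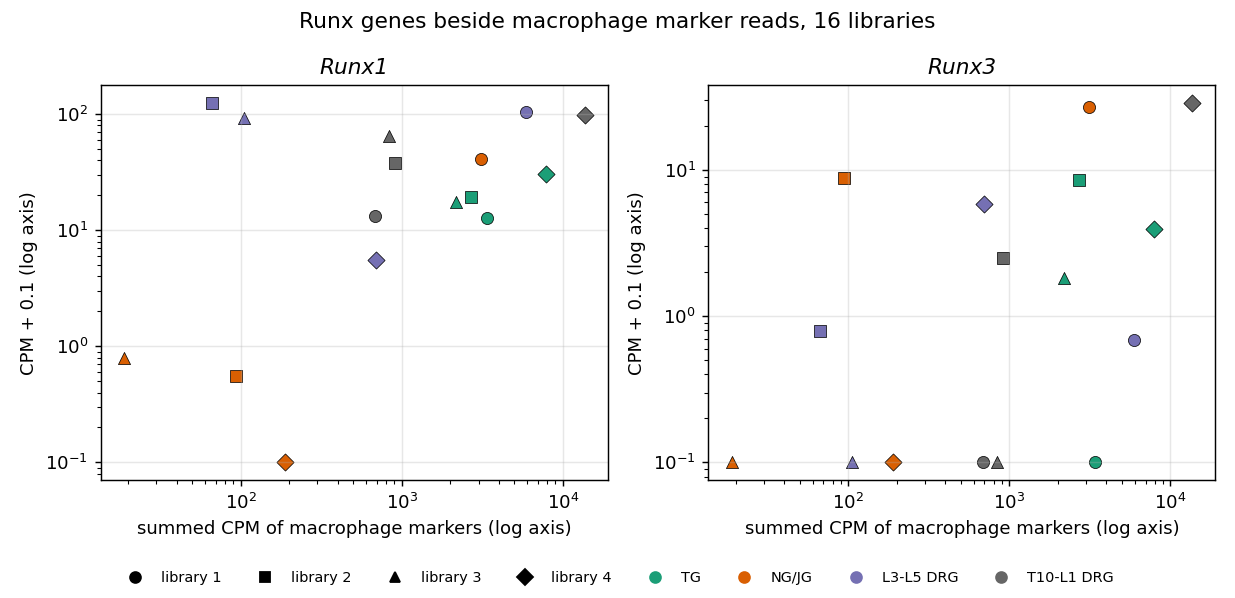
Runx1 (left) and Runx3 (right) in CPM plus 0.1 against the summed CPM of 7 macrophage markers, both on log axes, for the 16 libraries; colours give the ganglion and symbols the library number. L3-L5 DRG libraries 2 and 3 are high in Runx1 (125 and 93.1 CPM) at low macrophage sums, and NG/JG libraries 2 to 4 are low in Runx1 and in macrophage sum. NG/JG library 2 is at 8.65 CPM in Runx3.

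Prrxl1 (chr14:33412594-33462432, plus strand) had its highest mean in L3-L5 DRG. It stood at 9.92, 78.6, 65.3 and 6.335 CPM there, at 1.65, 6.69, 2.92 and 1.23 CPM in TG, at 0.974, 11.8, 9.26 and 0 CPM in NG/JG, and at 1.83, 16.7, 16.7 and 9.45 CPM in T10-L1 DRG. Only L3-L5 DRG library 4 overlapped with the range of TG, whose highest value was 6.69 CPM. TG differed from L3-L5 DRG by -3.30 on the log2 scale (SE 1.05, unadjusted p = 0.00973), a difference which edgeR did not call (adjusted p = 0.135) and DESeq2 did (adjusted p = 0.00847, with 12.7% of genes called). L3-L5 DRG differed from T10-L1 DRG by 1.84 (SE 0.93, edgeR adjusted p = 0.785). Without TG library 1 and L3-L5 DRG library 4, edgeR called Prrxl1 (-3.50, adjusted p = 0.036), Prdm12 (-2.12, adjusted p = 0.012) and Runx1 (-1.92, adjusted p = 0.00978) for TG against L3-L5 DRG. That setting was chosen after seeing the data, and edgeR called 2564 genes under it.

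Tlx3 (chr11:33100752-33103588, minus strand) was low in all ganglia. It had 0, 21, 9 and 28 reads in TG, 9, 3, 28 and 0 in NG/JG, 5, 12, 46 and 35 in T10-L1 DRG and 29, 26, 20 and 1 in L3-L5 DRG. No library reached 5 CPM, the highest being 4.92 CPM in TG library 4. NG/JG differed from the mean of the others by -0.76 (SE 1.35, edgeR adjusted p = 0.871).

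Phox2a (chr7:108966827-108971680, plus strand) had 65 reads in NG/JG library 1, or 9.04 CPM, and no read in the other 3 NG/JG libraries. It had 10 and 3 reads in L3-L5 DRG libraries 1 and 4 and none in the other 10 libraries outside NG/JG. A count of 0 in NG/JG libraries 2 to 4 allows up to 0.341, 0.415 and 0.310 CPM. Exons of Phox2a overlap those of Inppl1 on the opposite strand over 534 bases, 26.1% of its exon length. Whether the counting used strand is not given in the sources used here, so reads in that stretch cannot be told apart. Inppl1 had 31 to 84 reads in TG and 241 to 519 in T10-L1 DRG, where Phox2a had none. It had 1 to 409 reads in NG/JG and 59 to 270 in L3-L5 DRG. The part of Inppl1 in the Phox2a counts was not tested.

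Pou4f2 (Brn3b, chr8:80956908-80960551, minus strand) had 74 reads in L3-L5 DRG library 4 (15.6 CPM), the library with most reads outside genes. Elsewhere it had at most 10 reads, in T10-L1 DRG library 2, and no read in TG. NG/JG held 1 read, in library 3. Most of its reads thus came from 1 library.

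Genes known to depend on these factors, and others of the same programmes, were read from lists of their own. For NG/JG against the mean of the others, edgeR called 0.829% of all genes and DESeq2 9.91%. An unadjusted edgeR p under 0.05 occurred there for 17.1% of all genes. Of 8 Phox2-dependent genes, 7 were tested for NG/JG against the mean of the others and 2 were higher: P2rx2, an ATP-gated channel subunit (7.87, SE 0.95, edgeR adjusted p = 0.000448), and Chrnb4, a nicotinic receptor subunit (6.08, SE 1.11, edgeR adjusted p = 0.0143). P2rx2 ranged from 0.103 to 967 CPM in NG/JG and reached 10.9 CPM elsewhere, so its ranges overlapped. Chrnb4 ranged from 0.417 to 240.6 CPM in NG/JG and reached 39.0 CPM elsewhere. The calls of P2rx2 and Chrnb4 were kept in each of the 16 fits that left out 1 library, though P2rx2 ranged from 5.90 (without NG/JG library 3) to 8.29. With the replicate block Chrnb4 was not called (6.36, edgeR adjusted p = 0.101). The median log2 fold change of the 7 was 2.07, with 4 at an unadjusted p under 0.05 in edgeR and 3 called by DESeq2.

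Of 16 genes of the placodal and visceral programme, 8 were tested and 1 was higher in NG/JG, Eya1, a transcriptional cofactor of placodes (5.09, SE 1.14, edgeR adjusted p = 0.0414). Eya1 ranged from 4.96 to 102.7 CPM in NG/JG and up to 10.7 CPM elsewhere. The call of Eya1 was kept in 6 of the 16 fits that left out 1 library, with log2 fold changes of 4.21 (without NG/JG library 3) to 5.66. It was lost without TG library 2 or 4, NG/JG library 2 or 3, L3-L5 DRG library 1 or 4, or any of T10-L1 DRG. The median of the 8 was -0.06, with 6 at an unadjusted p under 0.05 in edgeR and 3 called by DESeq2. Of 23 somatosensory lineage and subtype factors, 17 were tested and 1 was lower in NG/JG, the factor gene Onecut2 (edgeR adjusted p = 0.0105). Onecut2 had no read in the 4 NG/JG libraries and 1.27 to 62.2 CPM in the other 12. A floor of 3 reads over the 4 NG/JG libraries together (0.0912 CPM) was 234-fold under the mean of the other 12 (21.38 CPM, SD 20.25). That fold covers counting error only and not the spread between libraries. The median of the 17 was -0.42, with 7 at an unadjusted p under 0.05 in edgeR and 4 called by DESeq2.

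Of 10 Runx1-dependent genes, 9 were tested and 1 was lower in NG/JG: Mrgprd, a receptor of nonpeptidergic nociceptors (-7.13, SE 1.27, edgeR adjusted p = 0.0135), at 0.207 to 1.94 CPM there against 0.381 to 807.8 CPM elsewhere. Without NG/JG library 3 it was -7.81, and it was called in all 16 fits without 1 library. The median of the 9 was 0.04, with 2 at an unadjusted p under 0.05 in edgeR and 2 called by DESeq2. Mrgprd was low also in NG/JG library 1, where Runx1 was at 40.8 CPM. Of 5 Runx3-dependent genes, all were tested, with 2 at an unadjusted p under 0.05 in edgeR and 2 called by DESeq2. The 1 called lower by edgeR was Pvalb, a calcium-binding protein of proprioceptors (edgeR adjusted p = 0.0268). Pvalb had at most 1 read in a NG/JG library and 5 to 832 reads elsewhere. Its mean was highest in TG (58.8 CPM, SD 60.9), beside 7.93 CPM (SD 7.18) in L3-L5 DRG and 13.7 CPM (SD 20.3) in T10-L1 DRG. The study also reports high Pvalb in TG, which it describes as lacking proprioceptors. Pvalb was thus not read here as a count of proprioceptors. The Pvalb call was kept in 12 of 16 fits without 1 library (lost without TG library 3 or 4 or NG/JG library 2 or 4). Ntrk2, the receptor TrkB, was called in the test of any difference among the 4 ganglia (edgeR adjusted p = 0.0357), where edgeR called 3.01% of all genes. Its means were 145 ± 39.9 CPM in TG, 543 ± 169 in NG/JG, 442 ± 141 in T10-L1 DRG and 290 ± 61.4 in L3-L5 DRG (SD, n = 4). The Ntrk2 call was not followed in fits without 1 library.

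Of 9 genes that depend on Prdm12, Isl1 or Pou4f1, all were tested and none was called for NG/JG against the mean of the others by edgeR. An unadjusted p under 0.05 in edgeR was found for 5 (17.1% of all genes), and DESeq2 called 3 (9.91% of all genes). Their median was -1.40. Avil, an actin-binding protein of sensory neurons that also stands among the pan-neuronal markers, was called in the test of any difference (edgeR adjusted p = 0.0226). There edgeR called 3.01% of all genes, and the Avil call was not followed in fits without 1 library. Its means were 54.5 ± 22.2 CPM in TG, 79.5 ± 42.6 in NG/JG, 234 ± 100.4 in T10-L1 DRG and 630.5 ± 484 in L3-L5 DRG (SD, n = 4). In TG against T10-L1 DRG, 8 of these genes were tested and 1 was called, where edgeR called 5.87% of all genes. It was Fgf13, which modulates sodium channels, lower in TG (-1.19, SE 0.29, edgeR adjusted p = 0.0429). The call was kept in 1 of 8 fits that left out 1 library (that without TG library 1).

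Of 18 partner proteins of the members, 17 were tested in TG against T10-L1 DRG and 1 was called, where edgeR called 5.87% of all genes. It was Ssbp3, a cofactor of LIM-homeodomain complexes, higher in TG (1.20, SE 0.30, edgeR adjusted p = 0.046). The call was likewise kept in 1 of 8 such fits, that without TG library 1. Of 11 paralogues, 6 were tested for NG/JG against the mean of the others and none was called by edgeR. An unadjusted p under 0.05 in edgeR was found for 2 (17.1% of all genes), and DESeq2 called 2 (9.91% of all genes). Pou4f3 had no read in NG/JG and up to 9.56 CPM elsewhere (edgeR adjusted p = 0.0651). Prdm8 had 1 read in NG/JG and up to 171 elsewhere (edgeR adjusted p = 0.181).

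Across the 16 libraries, the levels of several members varied together. Pearson's r of log2(CPM + 1) was 0.89 between Prdm12 and Pou4f1, 0.78 between Prdm12 and Prrxl1 and 0.78 between Pou4f1 and Prrxl1. It was 0.45 between Prdm12 and Isl1 and 0.86 for their deviations from the ganglion means. Runx1 and Isl1 had an r of -0.02. Both values of a pair come from 1 library and share its depth and neuron content, which differed between libraries; their part in r was not tested. The r with the log2 pan-neuronal sum was 0.86 for Isl1, 0.73 for Prrxl1, 0.64 for Prdm12, 0.50 for Pou4f1, 0.16 for Runx1 and -0.38 for Runx3.

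The genes most like each member over the 16 libraries were Serpina3g (r = 0.92) and Grik1 (0.92) for Prdm12, Rph3a (0.94) and Vamp1 (0.93) for Pou4f1, and Scg5 (0.93) and Ckmt1 (0.92) for Isl1. Prrxl1 was most like Dgkh (0.94) and Scn10a (0.92), a sodium channel gene of nociceptors. Runx1 was most like Ly86 (0.91) and Amigo3 (0.90), and Ly86 is also expressed by myeloid cells. For Runx3 they were Gli2 (0.83) and Clec2d (0.79), and for Tlx3 Ofd1 (0.87) and 3110082I17Rik (0.86).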

How the data were processed

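The deposited files hold raw read counts per gene symbol, 1 file per library, with 5 rows that name no gene and were left out. Per the study's methods and processing notes, the authors aligned 50-base single reads to mm9 with TopHat2 and made the counts with HTSeq; the strand setting is not given in the sources used here. Counts were tested with edgeR 4.0.16 (TMM, filterByExpr, quasi-likelihood test, Benjamini-Hochberg adjustment) in R 4.3.3, each pair of ganglia on its 8 libraries, and on all 16 for any difference and for NG/JG against the mean of the others. The study's DESeq was replaced by edgeR, with DESeq2 1.42.0 as an alternative. CPM used the reads on genes, and RPKM the GENCODE exon union of NCBIM37 (mm9). Correlations used log2(CPM + 1). Read ratios were taken as counted, with 0.5 added for the pairwise screen. The fits were also run on simulated counts with known differences. Their outcome is not given here, and no result above rests on it. Members and gene lists were chosen with earlier results of these data known. Named genes were the 9 members, up to 2 called genes of a list per comparison by size of change (or the 2 with the lowest p where a list had none), and the 2 genes most like each member. Alternatives were RLE factors, no filter, scaling to pan-neuronal markers, a replicate block, one fit of all 16 libraries, and leaving out libraries.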

Additional observations from a re-analysis of the deposited data

Results flagged for a closer look

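Among the 33 combinations of a gene and a ganglion with any spread, 6 had a library whose gap to the nearest of the other 3 exceeded Dixon's 95% limit for 4 samples. For normal values, chance exceeds this limit in about 1 group in 20. CPM with many zeros are not normal, and a group with reads in 1 library only always exceeds it. The 6 of 33 can therefore not be set against that rate. Phox2a stood at 9.04 CPM in NG/JG library 1 and at 0 in the other 3. Runx1 stood at 40.8 CPM in the same library and at 0 to 0.691 in the other 3. Pou4f2 (15.6 CPM, the others 0 to 0.584) and Runx3 (5.70 CPM, the others 0 to 0.695) stood apart in L3-L5 DRG library 4. Runx3 stood at 28.6 CPM in T10-L1 DRG library 4, with the others at 0 to 2.38. Pou4f2 in NG/JG library 3, at 0.138 CPM, was 1 read.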

How the results depend on the processing

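The count of members called stayed at 0 with RLE factors, no filter, scaling to pan-neuronal markers, the replicate block and one fit of all 16 libraries. DESeq2 called 1 member for TG against L3-L5 DRG (Prrxl1) and 1 for NG/JG against the mean of the others (Prdm12). Without filterByExpr, a setting added after seeing the data, DESeq2 called 1 and 2 (also Phox2a, whose reads within NG/JG came from 1 library). Without TG library 1 and L3-L5 DRG library 4, also added, edgeR called 3 for TG against L3-L5 DRG and 1 for TG against T10-L1 DRG. Of all genes it called 2564 and 3583 there. Leaving out 1 library at a time gave 0 to 1 for TG against T10-L1 DRG, any difference, and NG/JG against the mean of the others. Those fits called 0 to 3583, 33 to 1035 and 60 to 539 of all genes. Over all genes, DESeq2 called 460, 334, 388, 1453, 1947 and 40 genes in the 6 pairs, against 6, 0, 4, 0, 758 and 0 by edgeR (order: NG/JG against TG, L3-L5 DRG and T10-L1 DRG, TG against L3-L5 DRG and T10-L1 DRG, L3-L5 against T10-L1 DRG). For any difference it called 1667 against 429, and for NG/JG against the mean of the others 1389 against 118. One fit of all 16 libraries called 484, 83, 54, 206, 238 and 0 genes in the 6 pairs. The correlation of the deviations of same-numbered libraries was over 0.1 for 3 of 4 pairs in L3-L5 against T10-L1 DRG (-0.117 for the other), 2 of 4 in NG/JG against L3-L5 DRG, 1 of 4 in TG against T10-L1 DRG and 0 of 4 in the other 3; no comparison had every pair over 0.1, so the numbers were not taken to pair the libraries. With the replicate block, edgeR called 1 gene for NG/JG against TG and 0 for TG against T10-L1 DRG.

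Directions turned in these log2 fold changes, none of them called. With the replicate block, NG/JG against TG gave -2.49 for Runx3 and -0.63 for Prrxl1, and TG against T10-L1 DRG gave 1.85 for Runx3 and -0.0105 for Tlx3. Scaling to pan-neuronal markers moved the median of all genes by up to 0.475 (TG against L3-L5 DRG). It gave 0.036 for Pou4f1 and 0.036 for Isl1 in TG against L3-L5 DRG, -0.27 for Prrxl1 in NG/JG against TG, 0.29 for Tlx3 in NG/JG against L3-L5 DRG and -0.52 for Runx1 in L3-L5 against T10-L1 DRG. Without TG library 1 and L3-L5 DRG library 4, Isl1 was -0.33 in NG/JG against L3-L5 DRG and Tlx3 0.11 in L3-L5 against T10-L1 DRG. Leaving out 1 library at a time, Runx3 ranged from -0.46 to 2.00 in NG/JG against TG, from -1.5 to 3.58 in NG/JG against T10-L1 DRG, from -1.75 to 2.60 in TG against T10-L1 DRG and from -0.49 to 2.35 in NG/JG against the mean of the others. Prrxl1 ranged from -0.17 to 1.25 in NG/JG against TG, Isl1 from -0.56 to 0.81 and Tlx3 from -1.69 to 0.0668 in NG/JG against L3-L5 DRG, and Tlx3 from -0.53 to 0.19 in L3-L5 against T10-L1 DRG. The cause was not tested. Calls of the list genes named were followed outside the test of any difference. When scaled to pan-neuronal markers, those of Eya1 (4.84), Pvalb (-8.05), Fgf13 (-0.94) and Ssbp3 (1.35) were lost. With the replicate block, those of Chrnb4 (6.36), Eya1 (5.14), Fgf13 (-1.15) and Ssbp3 (1.21) were lost. Those of Fgf13 (-1.20) and Ssbp3 (1.19) were lost in one fit of all 16 libraries, and that of Ssbp3 (0.99) with no filter. Those of Mrgprd, Onecut2 and P2rx2 were lost under none of the alternatives run. The calls for any difference, those of Ntrk2 and Avil among them, were not followed by gene. For any difference edgeR called 13 genes when scaled to pan-neuronal markers in place of 429, and 33 to 1035 without 1 library.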
